A study of Mus musculus with 16 samples.

Results

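The endoplasmic reticulum (ER) folding machinery and the collagen-processing enzymes were examined in primary mouse lung fibroblasts on 1-colour Agilent microarrays. The set held 40 genes listed by name for ER folding, ER export, collagen hydroxylation and collagen chaperoning. All 40 had a probe, all 40 lay well above background on all 16 arrays, and all 40 were among the 15394 genes tested. The cells were meflin knockout with recombinant TGF-β1 at 5 ng/ml, meflin knockout with vehicle, wild type C57BL/6J with recombinant TGF-β1 at 5 ng/ml, or wild type C57BL/6J with vehicle, each for 48 h. All came from mice labelled female and 8 weeks old, with 4 arrays per group from what the design calls independent experiments. Meflin is a membrane-anchored protein of fibroblasts and mesenchymal stromal cells encoded by Islr, and TGF-β1 is the cytokine that drives fibroblasts towards a contractile, matrix-secreting state. The labels give neither the strain background of the knockout mice nor the deleted stretch, and nothing ties the arrays to separate animals, so a p-value here speaks of array-to-array spread alone, which may be technical.

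Collagen chains enter the ER through the Sec61 translocon and are hydroxylated on proline and lysine residues. They then fold into a triple helix with the help of collagen-specific chaperones and leave in COPII-coated carriers. General folding is carried out by BiP and GRP94 with their cofactors, by the lectin chaperones calreticulin and calnexin, and by protein disulfide isomerases, while misfolded proteins are sent to ER-associated degradation. When the folding load outgrows this capacity, the sensors of the unfolded protein response (UPR) raise the transcription of many of the same genes, through ATF6 and the spliced form of XBP1 among others. Fibroblasts of the lung are the main makers of fibrillar collagen in that tissue.

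Knockout TGF-β1 arrays had a 75th percentile of intensity of 382.1 to 445.9, knockout vehicle arrays one of 469.6 to 518.9, wild type TGF-β1 arrays one of 428.6 to 452.1 and wild type vehicle arrays one of 485.8 to 525.6. Islr, read by 1 probe that may lie outside the deleted stretch, was not well above background on any knockout array. With TGF-β1 its signal in knockout cells was at least 19.7-fold lower than in wild type cells (limma adjusted p = 6.35e-18). With vehicle it was at least 138-fold lower (adjusted p = 1.6e-19). All 9 fibroblast markers were above background in every group, with summed signals of 494000 to 538000 and 490000 to 514000 in knockout cells with TGF-β1 and vehicle, and 534000 to 562000 and 471000 to 525000 in wild type cells with TGF-β1 and vehicle. Single markers moved both ways. With TGF-β1 5 were called higher and 4 lower in each genotype, from -2.21 log2 units for Pdgfra to 1.79 for Thy1 in knockout cells. Of all genes 46.6% were called higher and 35.9% lower in knockout cells, and 41.3% and 27.3% in wild type cells. Between genotypes with TGF-β1 2 markers were called higher in knockout cells and 4 lower, with Pdgfra at -1.66. The 9 macrophage and leukocyte markers were above background in every group too, and 8 were called lower with TGF-β1 in each genotype. Their summed signal was 57800 to 63400 and 121000 to 123000 in knockout cells with TGF-β1 and vehicle, and 78400 to 84300 and 145000 to 167000 in wild type cells with TGF-β1 and vehicle. The 7 endothelial markers summed to 1370 to 1470 and 4160 to 4350, and to 2110 to 2240 and 4660 to 4960, in the same 4 groups, and the 5 mesothelial markers to 11500 to 13300 and 24900 to 25500, and to 25100 to 26100 and 27500 to 29000. In knockout TGF-β1 cells 6 of the 7 endothelial markers were above background. The 5 epithelial markers tested, of 8 listed, summed to 9450 to 10400 and 5550 to 5780, and to 9670 to 10400 and 5890 to 6760; Epcam, Sftpa1 and Nkx2-1 were not above background in any group. The 7 pericyte and smooth muscle markers summed to 25600 to 27300 and 24000 to 25900, and to 24300 to 26900 and 21700 to 23300. With TGF-β1 4 of these were called higher and 2 lower in knockout cells, from -1.78 for Kcnj8 to 3.63 for Myh11. In wild type cells 3 were called higher and 2 lower. These markers moved with the groups compared below and their part in the results was not tested; fewer cells of a type and less RNA per cell cannot be told apart in such bulk samples.

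The promoters of several of these genes hold letter matches to motifs known from the UPR. Some are shown here, from genes that did not all respond alike, and no action of the UPR on them was measured. Sequences are from RefSeq on GRCm38.p6, from 250 bases before to 50 after the start of a gene, of which 34 of the 40 genes had at least 1; Fkbp10, Hyou1, Kdelr2, Manf, Plod2 and Sec61a1 had none. The stretches lie at chr2:34772010-34772058 on the plus strand for Hspa5, chr10:86705518-86705671 on the minus strand for Hsp90b1, chr8:84847060-84847108 on the minus strand for Calr, chr14:118937812-118937860 on the plus strand for Dnajc3 and chr19:6046517-6046565 on the plus strand for Syvn1. Herpud1 follows at chr8:94386362-94386402, Kdelr3 at chr15:79516363-79516400 and Sec24d at chr3:123267455-123267492, all on the plus strand. Each is printed 5′ to 3′ on the strand of its gene, with the fixed letters of the motif in capitals.
Hspa5: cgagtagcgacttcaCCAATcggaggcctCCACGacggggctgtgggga
Hsp90b1: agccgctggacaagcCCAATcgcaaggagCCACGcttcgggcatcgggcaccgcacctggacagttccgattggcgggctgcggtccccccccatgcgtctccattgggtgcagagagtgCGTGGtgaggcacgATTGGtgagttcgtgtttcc
Calr: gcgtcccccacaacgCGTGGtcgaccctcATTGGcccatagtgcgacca
Dnajc3: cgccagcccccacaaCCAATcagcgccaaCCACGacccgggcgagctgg
Syvn1: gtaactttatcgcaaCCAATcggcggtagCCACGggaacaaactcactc
Herpud1: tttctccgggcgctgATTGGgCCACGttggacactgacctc
Kdelr3: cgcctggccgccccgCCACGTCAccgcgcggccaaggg
Sec24d: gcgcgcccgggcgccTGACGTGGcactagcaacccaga

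The motifs were searched on both strands. The ER stress response element, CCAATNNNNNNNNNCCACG, was found in 0.119% of 32851 promoters and in 8 of the 34 genes: Calr, Canx, Creld2, Dnajc3, Hsp90b1 with 2 copies, Hspa5, Pdia6 and Syvn1. The ER stress response element II, ATTGGNCCACG, stood in 0.0365% of promoters and in Dnajb11 and Herpud1, and the unfolded protein response element, TGACGTGG, in 0.676% of promoters and in Kdelr3, Sec23a and Sec24d. In Dnajb11 and Sec23a the match lay after the start. A match is a description of letters and not of a factor's binding, and the list was drawn up from genes of these pathways.

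With TGF-β1 most of the set rose in both genotypes. In knockout cells 35 of 40 genes were called higher and 3 lower than with vehicle, at an adjusted p under 0.05 from limma with Benjamini-Hochberg adjustment over all genes tested; of all genes 46.6% were called higher and 35.9% lower. In wild type cells 32 were called higher and 2 lower, against 41.3% and 27.3% of all genes. The median difference of the set was 0.69 log2 units in knockout cells, where the median of all genes was 0.10, and 0.39 in wild type cells, where it was 0.08. Of the genes called higher 11 rose at least 2-fold in knockout cells, and 2, P4ha2 and Kdelr3, in wild type cells. Among all 15394 genes tested 1475 did so in knockout cells and 502 in wild type cells.

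**Figure D1:**
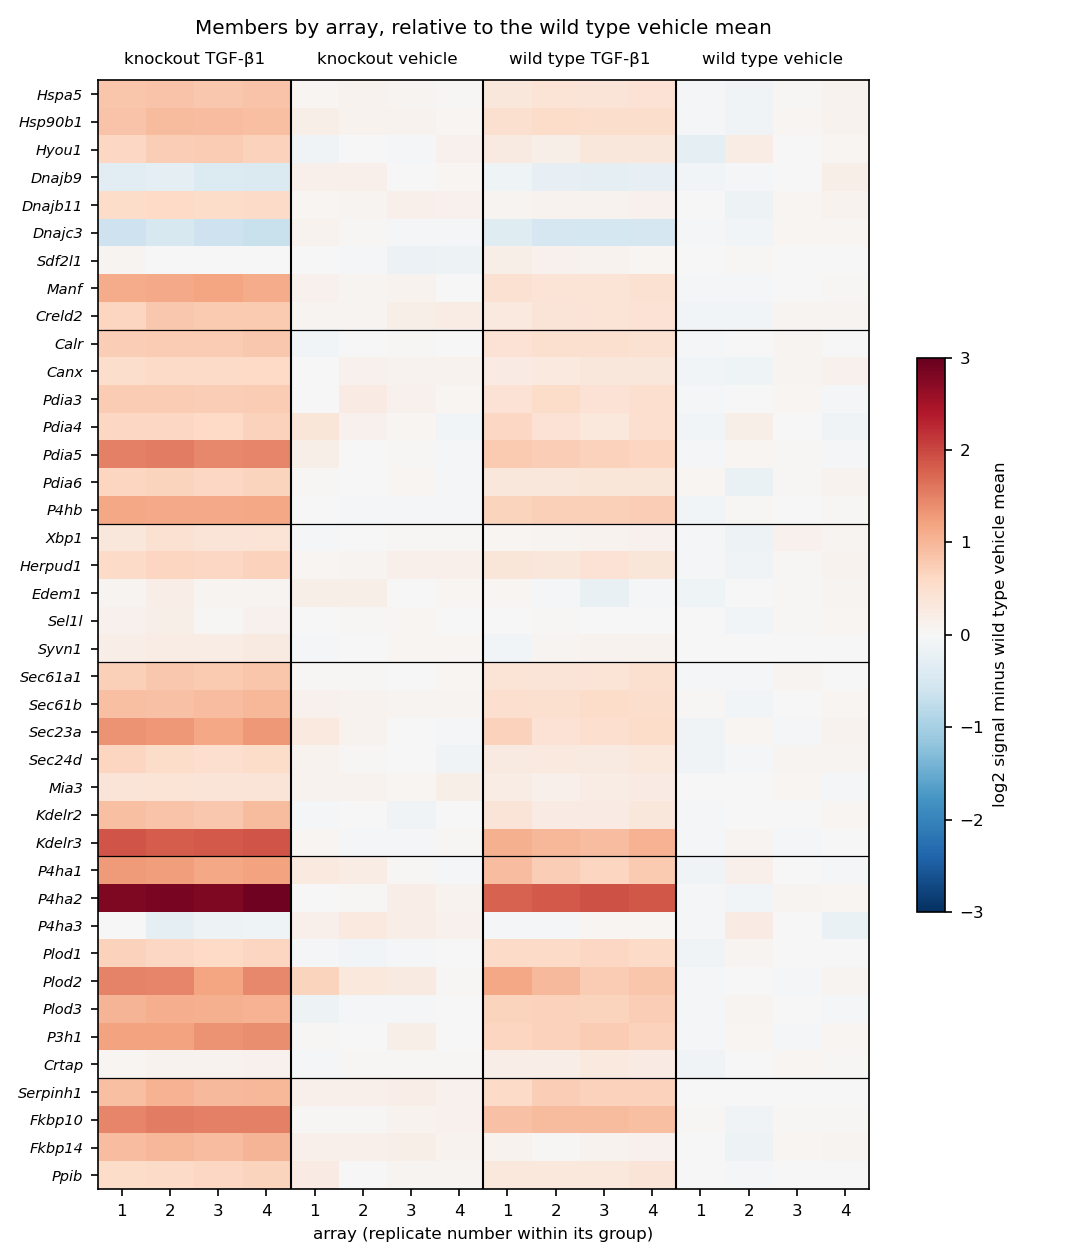
Each row is 1 of the 40 genes and each column 1 of the 16 arrays, and colour is the log2 signal minus the mean of the 4 wild type vehicle arrays. Rows are ordered by role, with lines between the 6 roles; the knockout TGF-β1 columns are the darkest red in most rows, P4ha2 is the darkest row, and Dnajb9 and Dnajc3 are blue with TGF-β1 in both genotypes.

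The size and, for some genes, the direction of these differences depended on how the arrays were scaled. Signals were compared after each array was shifted to a common 75th percentile. Quantile normalization gives all arrays the same distribution. With it 27 genes were called higher and 8 lower in knockout cells, and 24 higher and 5 lower in wild type cells. Of all genes 39.7% were then called higher in knockout and 35% in wild type cells. In either direction 81.6% and 67.2% of all genes were called. The median of all genes in knockout cells was -0.01 under that scaling, and the set stood 0.25 above it, compared with 0.59 above the median of all genes under the 75th percentile. In wild type cells the set stood 0.17 above all genes with quantile normalization and 0.31 above them otherwise. The genes of the set have bright probes, and brighter probes as a whole shifted upwards with TGF-β1: among the 844 genes with a mean log2 signal of 14 or more, the median difference in knockout cells was 0.43 and 74.8% were called higher, while the 11 members of that band had a median of 0.76 and all 11 were called higher. Among the 8339 genes under 10 the median was -0.08, and the 6 members there had a median of 0.69. With quantile normalization the brightest band had a median of -0.10 over all its genes and 0.18 over its members. These bands were drawn after the values were seen.

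Between genotypes, TGF-β1-treated knockout cells held higher signals of most of the set than TGF-β1-treated wild type cells. Of the 40 genes 33 were called higher and 3 lower, with 39.7% of all genes called higher and 30.5% lower, and the median difference was 0.33 for the set and 0.06 for all genes. With quantile normalization these counts were 18 higher and 6 lower, and the medians were 0.08 for the set and -0.01 for all genes. Of all genes 31.5% were then called higher and 67.3% in either direction. With vehicle only Serpinh1 and Mia3 were called higher in knockout cells and none lower, against 7.06% and 6.16% of all genes. With quantile normalization the genes called higher were Serpinh1, Creld2 and Fkbp14, and none was called lower. Of all genes 8.2% were then called higher. The difference between the 2 genotypes' responses, tested as the interaction term, was positive and called for 28 genes and negative and called for 3, against 31.9% and 26.5% of all genes. With quantile normalization 13 of the 40 were positive and called, with 24.2% of all genes, and 4 were negative and called. In either direction 55.5% of all genes were then called. The genotype comparison with TGF-β1 and the interaction share the TGF-β1 arrays.

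**Figure D2:**
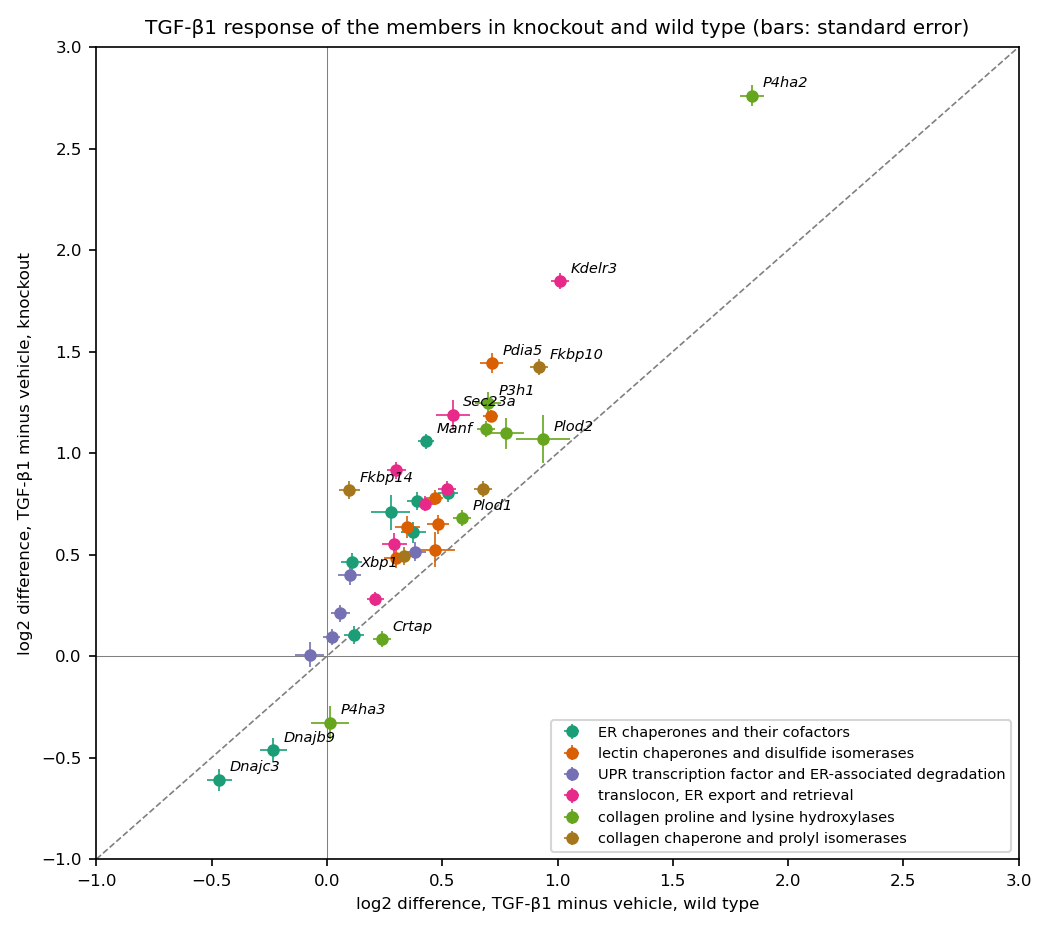
Each point is 1 of the 40 genes, with its log2 difference between TGF-β1 and vehicle in knockout cells on the vertical axis and in wild type cells on the horizontal axis, bars showing standard errors and colours the role. Points above the dashed line of equal response had a larger difference in knockout cells; P4ha2 is the farthest, at 2.76 and 1.84, and Dnajc3 is the lowest, at -0.61 and -0.47.

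The 9 ER chaperones and cofactors comprised the Hsp70 chaperone BiP (Hspa5), the Hsp90 chaperone GRP94 (Hsp90b1), the Hsp70-like exchange factor Hyou1, the J-domain partners of BiP Dnajb9, Dnajb11 and Dnajc3, the Dnajb11 partner Sdf2l1, and the secreted or luminal ER proteins Manf and Creld2. With TGF-β1, 7 rose and 2 fell in both genotypes, and with quantile normalization 6 were higher and 2 lower in knockout cells and 4 higher and 2 lower in wild type cells. Hspa5 had log2 signals of 15.95, 15.97, 15.93 and 15.98 in knockout TGF-β1 cells, 15.18, 15.22, 15.20 and 15.17 in knockout vehicle cells, 15.46, 15.53, 15.50 and 15.55 in wild type TGF-β1 cells and 15.07, 15.01, 15.17 and 15.24 in wild type vehicle cells. All knockout TGF-β1 arrays lay above all others, the wild type TGF-β1 arrays lay above every vehicle array, and the vehicle arrays of both genotypes overlapped. The difference was 0.76 ± 0.04 (SE, n = 4 arrays per group, limma adjusted p = 2.2e-10) in knockout and 0.39 ± 0.04 (adjusted p = 1.31e-06) in wild type cells. The interaction was 0.37 ± 0.06 (adjusted p = 0.000102). With quantile normalization Hspa5 differed by 0.13 in knockout cells and by 0.03 in wild type cells, where the call was lost (adjusted p = 0.515), as was that of the interaction.

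Manf, a secreted ER protein that rises with ER stress, averaged 13.15 ± 0.03 with TGF-β1 and 12.09 ± 0.07 with vehicle in knockout cells, and 12.45 ± 0.02 with TGF-β1 and 12.02 ± 0.03 with vehicle in wild type cells (SD, n = 4). Its differences of 1.06 and 0.43, and its interaction of 0.63 ± 0.05 (adjusted p = 8.84e-08), kept their calls in each alternative that gave a value. Hsp90b1 rose by 0.81 in knockout and 0.52 in wild type cells, Creld2 by 0.61 and 0.37, and Hyou1 by 0.71 and 0.28. The interactions of Hsp90b1 and Creld2, 0.28 and 0.23, turned slightly negative with quantile normalization, while that of Hyou1, 0.43, was 0.48 there and was not called within slide 1. Dnajb11 rose by 0.46 in knockout cells; its 0.11 in wild type cells (adjusted p = 0.048) kept its call only without knockout vehicle replicate 1 or wild type vehicle replicates 3 or 4, reached an adjusted p of 0.157 without others, and was -0.04 with quantile normalization. It was 0.23 (adjusted p = 0.000109) with normexp background correction, and a second Dnajb11 probe of nearly the same brightness gave 0.21 (adjusted p = 0.000523 over all kept probes).

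Dnajc3, also called p58IPK, had log2 signals of 9.65, 9.78, 9.64 and 9.60 in knockout TGF-β1 cells, 10.37, 10.32, 10.22 and 10.21 in knockout vehicle cells, 9.92, 9.77, 9.76 and 9.77 in wild type TGF-β1 cells and 10.22, 10.20, 10.33 and 10.34 in wild type vehicle cells. Every TGF-β1 array lay below every vehicle array, and replicate 2 of the knockout TGF-β1 arrays lay within the range of the wild type TGF-β1 arrays. Dnajc3 fell by 0.61 on the log2 scale in knockout cells (adjusted p = 4.86e-08) and by 0.47 in wild type cells (adjusted p = 2.07e-06). Its interaction of -0.14 ± 0.08 was not called (adjusted p = 0.128), and the genotype difference with TGF-β1, -0.13, lost its call without knockout TGF-β1 replicates 1, 3 or 4 or wild type TGF-β1 replicate 1 (adjusted p up to 0.126).

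Dnajb9, also called ERdj4, had log2 signals of 10.46, 10.54, 10.40 and 10.38 in knockout TGF-β1 cells, 10.97, 10.97, 10.82 and 10.87 in knockout vehicle cells, 10.68, 10.56, 10.51 and 10.56 in wild type TGF-β1 cells and 10.72, 10.75, 10.80 and 10.98 in wild type vehicle cells. The TGF-β1 arrays lay below the vehicle arrays in both genotypes, and the TGF-β1 arrays of the genotypes overlapped. It fell by 0.46 in knockout (adjusted p = 3.9e-06) and by 0.23 in wild type cells (adjusted p = 0.00326). The interaction of -0.23 was called (adjusted p = 0.0307) but lost its call without any 1 of 8 arrays: knockout TGF-β1 replicates 3 and 4, knockout vehicle replicates 1 and 2, wild type TGF-β1 replicate 1 and wild type vehicle replicates 1, 2 and 3 (adjusted p up to 0.0645). A dimmer Dnajb9 probe gave -0.15, not called. Sdf2l1 had 10.03, 9.94, 9.95 and 9.94 in knockout TGF-β1 cells, 9.96, 9.92, 9.77 and 9.80 in knockout vehicle cells, 10.13, 10.07, 10.05 and 10.02 in wild type TGF-β1 cells and 9.93, 9.99, 9.94 and 9.93 in wild type vehicle cells. The knockout groups overlapped, and the wild type groups were separated by a narrow margin. Its called differences of 0.10 in knockout and 0.12 in wild type cells each lost the call without any 1 of 4 arrays (adjusted p up to 0.136 and 0.0772): knockout TGF-β1 replicates 1 and 3 and knockout vehicle replicates 3 and 4, and wild type TGF-β1 replicate 1 and wild type vehicle replicates 1, 3 and 4.

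The 7 lectin chaperones and disulfide isomerases all rose with TGF-β1 in both genotypes, and 5 were called higher in each with quantile normalization. Calr, the calcium-binding lectin chaperone calreticulin, rose by 0.78 ± 0.04 in knockout (adjusted p = 1.62e-11) and 0.47 ± 0.04 in wild type cells (adjusted p = 2.04e-08). Its membrane-bound relative calnexin, Canx, rose by 0.48 and 0.30, values that were -0.03 and 0.03 with quantile normalization and not called; a dimmer Canx probe gave 0.15 and 0.12. Pdia6, a thiol isomerase that also acts on UPR sensors, rose by 0.64 and 0.35, against 0.02 and -0.04, not called, with quantile normalization.

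Pdia5, a thiol isomerase with a role in ATF6 activation, had the largest response of this group. Its log2 signals were 11.48, 11.51, 11.43 and 11.43 in knockout TGF-β1 cells, 10.16, 9.97, 10.02 and 9.92 in knockout vehicle cells, 10.76, 10.71, 10.68 and 10.62 in wild type TGF-β1 cells and 9.92, 10.03, 10.01 and 9.95 in wild type vehicle cells. The TGF-β1 arrays of each genotype stood apart from each other and from the vehicle arrays, which overlapped. Pdia5 rose by 1.44 ± 0.05 in knockout (adjusted p = 4.8e-13) and 0.71 ± 0.05 in wild type cells (adjusted p = 5.93e-09). The interaction of 0.73 ± 0.07 (adjusted p = 4.24e-07) was 0.60 with quantile normalization.

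P4hb, which serves both as the disulfide isomerase PDI and as the β subunit of prolyl 4-hydroxylase, averaged 14.56 ± 0.02 with TGF-β1 and 13.38 ± 0.03 with vehicle in knockout cells, and 14.13 ± 0.03 with TGF-β1 and 13.42 ± 0.05 with vehicle in wild type cells. It rose by 1.18 ± 0.03 and 0.71 ± 0.03, with an interaction of 0.47 ± 0.04 (adjusted p = 3.62e-07; 0.21 with quantile normalization). Pdia3, the isomerase that works with calreticulin and calnexin on glycoproteins, rose by 0.65 and 0.48; its interaction of 0.17 kept its call only without knockout vehicle replicate 2, wild type TGF-β1 replicate 2 or wild type vehicle replicates 1 or 4 (adjusted p up to 0.0859 without others) and was -0.07 with quantile normalization; a dimmer probe gave 0.26, called. Pdia4, a multidomain isomerase, rose by 0.52 and 0.47, and its interaction of 0.05 had a 95% interval of -0.21 to 0.31 and was not called.

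The 5 genes of the UPR transcription factor and ER-associated degradation had the lowest median response of the 6 roles, 0.21 in knockout and 0.06 in wild type cells. In knockout cells 4 were called higher with TGF-β1 and in wild type cells 1, Herpud1; with quantile normalization 1 was called higher and 4 lower in knockout cells, and 1 higher and 3 lower in wild type cells. Xbp1, whose spliced mRNA encodes a UPR transcription factor, had log2 signals of 14.81, 14.91, 14.84 and 14.87 in knockout TGF-β1 cells, 14.41, 14.45, 14.49 and 14.49 in knockout vehicle cells, 14.53, 14.54, 14.57 and 14.58 in wild type TGF-β1 cells and 14.42, 14.30, 14.57 and 14.53 in wild type vehicle cells. The knockout TGF-β1 arrays lay above all others, and the wild type groups overlapped. The difference was 0.40 ± 0.05 in knockout cells (adjusted p = 2.64e-06) but -0.12 with quantile normalization, and 0.10 ± 0.05 in wild type cells, not called (adjusted p = 0.0938; called without wild type vehicle replicate 3, at 0.0222). With quantile normalization the wild type difference was -0.15 and called lower (adjusted p = 0.00402). Both dimmer Xbp1 probes gave 0.36 and 0.44 in knockout cells, and -0.06 and 0.08 in wild type cells. The probes are taken to read total Xbp1, so spliced and unspliced mRNA cannot be told apart.

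Herpud1, a membrane protein of the degradation complex and a common UPR target, rose by 0.51 ± 0.05 in knockout and 0.38 ± 0.05 in wild type cells, and its interaction of 0.13 was not called (adjusted p = 0.1). That interaction was called with slide as a block and with the replicate block, and without wild type vehicle replicate 2, at the same or a similar size. A dimmer Herpud1 probe gave 0.33 (adjusted p = 0.00201 over all kept probes), and the mean of both probes 0.23. With quantile normalization Herpud1 rose by 0.18 in knockout and by 0.22 in wild type cells, so its rise was not larger in knockout cells there. Syvn1, the ubiquitin ligase HRD1, and Sel1l, its adaptor, were called higher in knockout cells by 0.21 and 0.09, yet differed by -0.24 and -0.28, and were called lower, with quantile normalization. The call of Sel1l was also lost without knockout TGF-β1 replicates 1, 2 or 4 or knockout vehicle replicates 1 or 4 (adjusted p up to 0.0932). Edem1, a mannosidase-like protein that directs misfolded glycoproteins to degradation, differed by 0.01 in knockout cells by its brighter probe, with a 95% interval of -0.13 to 0.14. Its second probe gave 0.51, and 0.18 in wild type cells, both called, so the 2 probes disagree on Edem1.

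All 7 genes of the translocon, ER export and retrieval rose with TGF-β1 in both genotypes; 6 of 7 were called higher in each with quantile normalization, the exception being Mia3. Kdelr3, a receptor that returns KDEL-bearing proteins to the ER from the Golgi, led them. It had log2 signals of 13.41, 13.34, 13.36 and 13.41 in knockout TGF-β1 cells, 11.58, 11.48, 11.50 and 11.56 in knockout vehicle cells, 12.58, 12.52, 12.46 and 12.58 in wild type TGF-β1 cells and 11.49, 11.60, 11.50 and 11.51 in wild type vehicle cells. The vehicle groups overlapped and the TGF-β1 groups stood apart by genotype. Kdelr3 rose by 1.85 ± 0.04, which is 3.597-fold, in knockout cells (adjusted p = 2e-15) and by 1.01 ± 0.04, or 2.02-fold, in wild type cells (adjusted p = 8.64e-12), and the interaction was 0.84 ± 0.05 (adjusted p = 7.62e-09). Its relative Kdelr2 rose by 0.91 ± 0.04 and 0.30 ± 0.04, with an interaction of 0.61 ± 0.06 (adjusted p = 6.97e-07).

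Sec23a, a COPII coat subunit, had log2 signals of 10.38, 10.34, 10.19 and 10.33 in knockout TGF-β1 cells, 9.31, 9.13, 9.05 and 8.99 in knockout vehicle cells, 9.72, 9.45, 9.54 and 9.57 in wild type TGF-β1 cells and 8.91, 9.08, 8.97 and 9.13 in wild type vehicle cells. The order of the groups was that of Kdelr3, again with overlapping vehicle groups. Sec23a rose by 1.19 ± 0.07 (adjusted p = 7.14e-10) and 0.55 ± 0.07 (adjusted p = 1.12e-05), with an interaction of 0.64 ± 0.11 (adjusted p = 9.86e-05). Its coat partner Sec24d rose by 0.55 and 0.29. The translocon subunits Sec61a1 and Sec61b rose by 0.75 and 0.82 in knockout and 0.43 and 0.52 in wild type cells, and their interactions, 0.32 and 0.30, fell short of a call with quantile normalization, at 0.05 and 0.03. Of 2 dimmer Sec61a1 probes 1 gave an interaction of 0.34 and the other 0.01, not called.

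Mia3, also called TANGO1, which loads procollagen into export carriers, had log2 signals of 13.02, 13.06, 13.02 and 13.03 in knockout TGF-β1 cells, 12.74, 12.75, 12.70 and 12.83 in knockout vehicle cells, 12.85, 12.78, 12.87 and 12.89 in wild type TGF-β1 cells and 12.62, 12.66, 12.69 and 12.59 in wild type vehicle cells. The knockout vehicle arrays lay above the wild type vehicle arrays and overlapped the wild type TGF-β1 arrays. Mia3 rose by 0.28 ± 0.04 in knockout and 0.21 ± 0.04 in wild type cells, values of -0.07 and 0.05, not called, with quantile normalization. The vehicle difference of 0.11 ± 0.04 (adjusted p = 0.0483) kept its call only without knockout vehicle replicate 3, wild type TGF-β1 replicate 2 or wild type vehicle replicate 3, and reached an adjusted p of 0.14 without others.

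The 8 genes of collagen proline and lysine hydroxylation had the highest median response of the 6 roles, 1.08 in knockout and 0.69 in wild type cells. In knockout cells 6 rose and P4ha3 fell, and in wild type cells 7 rose; with quantile normalization 6 were higher in each, and 2, P4ha3 and Crtap, were lower in knockout cells. P4ha2, a catalytic α subunit of prolyl 4-hydroxylase, had log2 signals of 14.83, 14.88, 14.84 and 14.94 in knockout TGF-β1 cells, 12.02, 12.07, 12.22 and 12.14 in knockout vehicle cells, 13.80, 13.87, 13.94 and 13.88 in wild type TGF-β1 cells and 11.98, 11.94, 12.12 and 12.08 in wild type vehicle cells. The TGF-β1 groups stood apart from each other and from the overlapping vehicle groups. P4ha2 rose by 2.76 ± 0.05, or 6.77-fold, in knockout cells (adjusted p = 6.08e-16) and by 1.84 ± 0.05, or 3.59-fold, in wild type cells (adjusted p = 2.74e-13). The interaction was 0.92 ± 0.07 (adjusted p = 6.81e-08) and 0.64 with quantile normalization. With vehicle the genotypes differed by 0.08, with a 95% interval of -0.03 to 0.19.

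The other α subunits behaved differently. P4ha1 had log2 signals of 11.44, 11.41, 11.33 and 11.38 in knockout TGF-β1 cells, 10.45, 10.38, 10.20 and 10.14 in knockout vehicle cells, 11.09, 10.91, 10.80 and 10.96 in wild type TGF-β1 cells and 10.06, 10.31, 10.14 and 10.14 in wild type vehicle cells. Its TGF-β1 groups stood apart and its vehicle groups overlapped. It rose by 1.097 ± 0.08 in knockout and 0.78 ± 0.08 in wild type cells, and its interaction of 0.32 ± 0.11 (adjusted p = 0.0194) was not called with quantile normalization or within slide 1. P4ha3 had 7.83, 7.51, 7.67 and 7.68 in knockout TGF-β1 cells, 7.95, 8.10, 8.00 and 7.93 in knockout vehicle cells, 7.78, 7.77, 7.87 and 7.87 in wild type TGF-β1 cells and 7.77, 8.06, 7.79 and 7.62 in wild type vehicle cells. The knockout TGF-β1 arrays of P4ha3 lay below the knockout vehicle arrays but overlapped both wild type groups. It fell by 0.33 on the log2 scale in knockout cells (adjusted p = 0.00182) and differed by 0.01 in wild type cells (adjusted p = 0.895), with an interaction of -0.34 ± 0.12 (adjusted p = 0.0205) that was not called within slide 1. A dimmer P4ha3 probe, in a fit over all kept probes, was lower in wild type cells too (-0.24, adjusted p = 0.0428) and its interaction of -0.21 was not called (adjusted p = 0.221), so a fall in knockout cells alone rests on 1 of 2 probes.

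Plod1, Plod2 and Plod3 encode lysyl hydroxylases; Plod2 acts on the telopeptides of collagen, which form cross-links, and Plod3 also has glycosyltransferase activity. Plod2 had log2 signals of 12.65, 12.63, 12.33 and 12.61 in knockout TGF-β1 cells, 11.83, 11.48, 11.44 and 11.18 in knockout vehicle cells, 12.32, 12.13, 11.93 and 12.001 in wild type TGF-β1 cells and 11.09, 11.18, 11.13 and 11.23 in wild type vehicle cells. Its arrays spread more than those of most other genes here, with an SD of 0.27 among knockout vehicle arrays, and knockout TGF-β1 replicate 3 lay next to the highest wild type TGF-β1 array. Plod2 rose by 1.07 ± 0.12 in knockout (adjusted p = 5.76e-07) and 0.94 ± 0.12 in wild type cells (adjusted p = 4.78e-06). The interaction of 0.13, with a 95% interval of -0.22 to 0.49, was not called. With vehicle its genotype difference of 0.33 was not called (adjusted p = 0.0856), and was called without knockout vehicle replicate 4 (adjusted p = 0.025).

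Plod3 had log2 signals of 12.74, 12.83, 12.81 and 12.78 in knockout TGF-β1 cells, 11.59, 11.71, 11.68 and 11.72 in knockout vehicle cells, 12.40, 12.42, 12.41 and 12.47 in wild type TGF-β1 cells and 11.69, 11.81, 11.75 and 11.68 in wild type vehicle cells. The TGF-β1 groups did not overlap and the vehicle groups did. It rose by 1.12 ± 0.04 and 0.69 ± 0.04, with an interaction of 0.43 ± 0.06 (adjusted p = 1.18e-05). Plod1 had 10.23, 10.16, 10.15 and 10.19 in knockout TGF-β1 cells, 9.52, 9.46, 9.48 and 9.54 in knockout vehicle cells, 10.12, 10.11, 10.16 and 10.12 in wild type TGF-β1 cells and 9.44, 9.62, 9.57 and 9.56 in wild type vehicle cells. For Plod1 the genotypes overlapped with TGF-β1 and with vehicle. It rose by 0.68 ± 0.04 and 0.58 ± 0.04, and its interaction of 0.09, with a 95% interval of -0.02 to 0.21, was not called, except without wild type vehicle replicate 1 (adjusted p = 0.0274).

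P3h1 and Crtap encode partners of the collagen prolyl 3-hydroxylase complex, and their differences were unlike. P3h1, the enzyme, had log2 signals of 10.58, 10.57, 10.72 and 10.77 in knockout TGF-β1 cells, 9.39, 9.35, 9.54 and 9.38 in knockout vehicle cells, 10.003, 10.07, 10.14 and 10.06 in wild type TGF-β1 cells and 9.32, 9.42, 9.32 and 9.42 in wild type vehicle cells. As for P4ha1, the TGF-β1 groups stood apart and the vehicle groups overlapped. It rose by 1.245 ± 0.06 and 0.70 ± 0.06, with an interaction of 0.55 ± 0.08 (adjusted p = 2.88e-05). Crtap, the non-enzymatic partner, had 13.68, 13.72, 13.71 and 13.74 in knockout TGF-β1 cells, 13.58, 13.64, 13.64 and 13.65 in knockout vehicle cells, 13.81, 13.80, 13.91 and 13.87 in wild type TGF-β1 cells and 13.51, 13.63, 13.67 and 13.63 in wild type vehicle cells. All wild type TGF-β1 arrays of Crtap lay above all knockout TGF-β1 arrays. Crtap differed by 0.08 in knockout cells, not called (adjusted p = 0.0583), and rose by 0.24 in wild type cells, values of -0.35, called, and 0.03, not called, with quantile normalization. Its interaction of -0.15 (adjusted p = 0.0247) lost its call without wild type TGF-β1 replicate 3 (adjusted p = 0.0544). Ppib, the other partner and a prolyl isomerase, rose by 0.49 and 0.34, but was -0.02 and 0.08, not called, with quantile normalization.

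**Figure D3:**
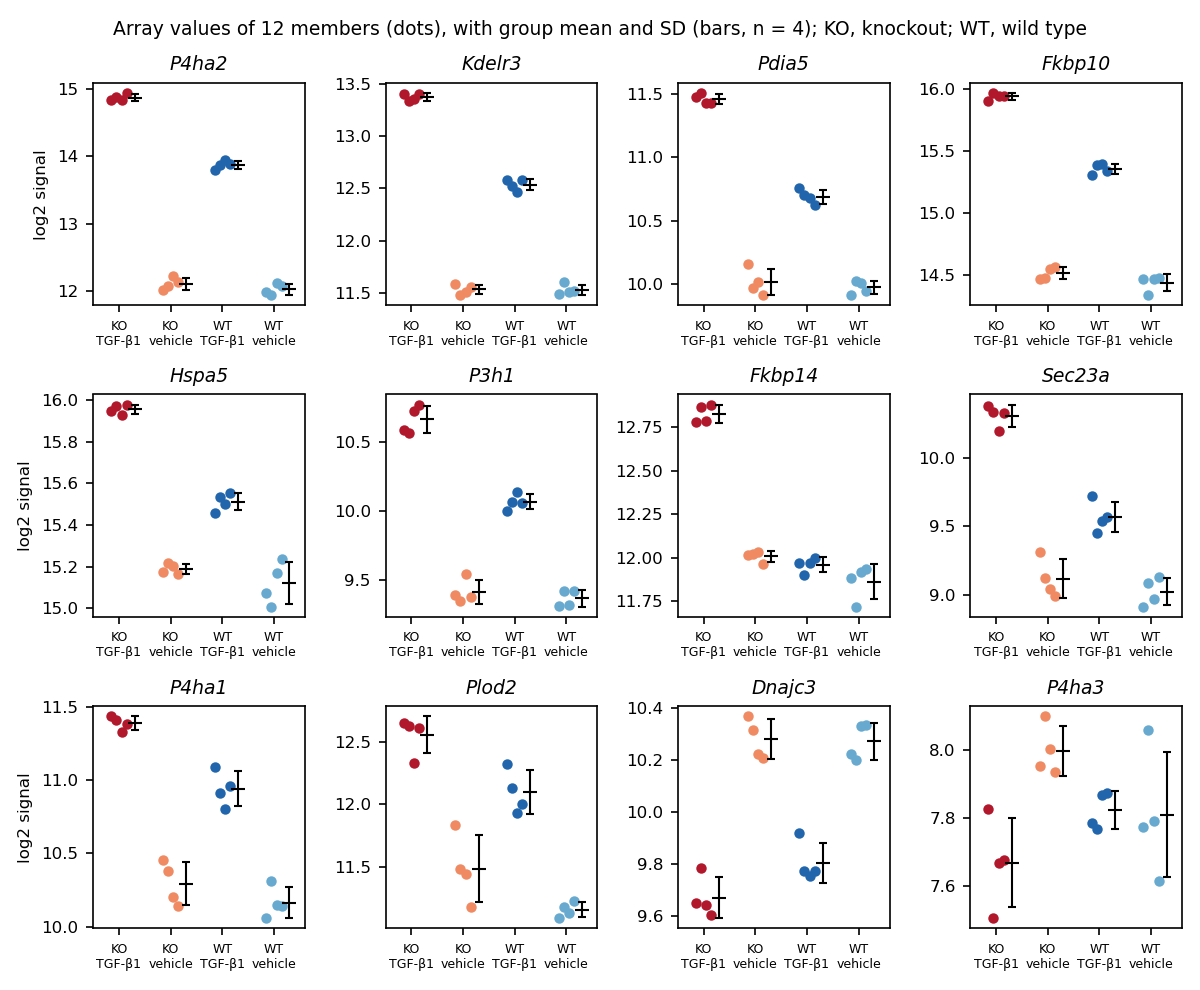
Dots are the log2 signals of the 4 arrays of each group, for 12 of the 40 genes, with the group mean and SD beside them; KO is knockout, WT is wild type, and each panel has its own vertical scale. P4ha2, Kdelr3, Pdia5 and Fkbp10 stand higher with TGF-β1 than with vehicle in both genotypes, and higher in knockout than in wild type TGF-β1 cells, Fkbp14 stands apart in knockout TGF-β1 cells, and Dnajc3 lies lower with TGF-β1.

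The remaining collagen chaperones and prolyl isomerases were Serpinh1, Fkbp10 and Fkbp14. With Ppib, 4 of 4 rose in knockout and 3 of 4 in wild type cells, against 3 and 2 with quantile normalization. Serpinh1, the collagen chaperone HSP47, had log2 signals of 15.57, 15.71, 15.66 and 15.68 in knockout TGF-β1 cells, 14.83, 14.83, 14.86 and 14.81 in knockout vehicle cells, 15.25, 15.41, 15.38 and 15.38 in wild type TGF-β1 cells and 14.65, 14.67, 14.68 and 14.70 in wild type vehicle cells. None of the 4 groups overlapped, so Serpinh1 also differed between genotypes with vehicle, by 0.16 ± 0.04 (adjusted p = 0.0148; 0.14 with quantile normalization). It rose by 0.82 ± 0.04 (adjusted p = 2.79e-11) and 0.68 ± 0.04 (adjusted p = 8.99e-10). The interaction of 0.14 was called (adjusted p = 0.0372) but kept its call only without knockout TGF-β1 replicate 1, knockout vehicle replicate 3, wild type TGF-β1 replicates 2, 3 or 4 or wild type vehicle replicates 1 or 2 (adjusted p up to 0.0764 without others), and was -0.10 with quantile normalization.

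Fkbp10, or FKBP65, a prolyl isomerase that supports collagen lysyl hydroxylation, had log2 signals of 15.90, 15.97, 15.95 and 15.95 in knockout TGF-β1 cells, 14.47, 14.48, 14.55 and 14.57 in knockout vehicle cells, 15.31, 15.39, 15.40 and 15.34 in wild type TGF-β1 cells and 14.47, 14.34, 14.48 and 14.48 in wild type vehicle cells. The TGF-β1 groups stood apart from each other and from the vehicle groups, which overlapped. It rose by 1.42 ± 0.04 (adjusted p = 3.97e-14) and 0.92 ± 0.04 (adjusted p = 2.64e-11), with an interaction of 0.50 ± 0.05 (adjusted p = 1.91e-06).

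Fkbp14, or FKBP22, is an isomerase whose loss in humans causes a connective tissue disorder. Its log2 signals were 12.78, 12.86, 12.78 and 12.88 in knockout TGF-β1 cells, 12.02, 12.02, 12.03 and 11.96 in knockout vehicle cells, 11.97, 11.90, 11.97 and 12.001 in wild type TGF-β1 cells and 11.88, 11.72, 11.92 and 11.94 in wild type vehicle cells. The wild type TGF-β1 arrays overlapped both vehicle groups, while all knockout TGF-β1 arrays lay above every other array. Fkbp14 rose by 0.82 ± 0.05 in knockout cells (adjusted p = 1.88e-10) and differed by 0.10 ± 0.05 in wild type cells, not called (adjusted p = 0.0718, and 0.0377 without wild type vehicle replicate 4). The interaction was 0.72 ± 0.06 (adjusted p = 2.49e-07) and 0.53 with quantile normalization, and a second, dimmer probe of Fkbp14 gave 0.81.

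Across the set the interaction was called in the same direction in each alternative that gave a value for Dnajb11, Manf, Pdia5, P4hb, Sec23a, Kdelr2, Kdelr3, P4ha2, Plod3, P3h1, Fkbp10 and Fkbp14. Their interactions ran between 0.36 for Dnajb11 and 0.92 for P4ha2. None of them belonged to the 5 genes of the UPR transcription factor and ER-associated degradation, of which 2 were called in the main fit. Of all genes 58.3% were called for the interaction in the main fit and 55.5% with quantile normalization. The share of all genes that kept a call in each alternative was not counted.

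Responses are given here by promoter motif as a description, with no test. Of the 8 genes with the ER stress response element 7 rose and Dnajc3 fell in knockout cells. Their differences ran between -0.61 and 0.81 with a median of 0.62. The 21 genes with a promoter and none of the 3 motifs ran between -0.46 and 2.76 with a median of 0.65. The 13 genes with any of the 3 motifs ran between -0.61 and 1.85 with a median of 0.61. In wild type cells the 8 genes ran between -0.47 and 0.52 with a median of 0.36, the 21 between -0.23 and 1.84 with a median of 0.47, and the 13 between -0.47 and 1.01 with a median of 0.37. Of the 4 genes with the largest rises in knockout cells among those with a promoter, Kdelr3, second to P4ha2, held the unfolded protein response element shown above, and P4ha2, Pdia5 and P3h1 had no match in this window.

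The rest of the same pathways was read from lists that leave out the 40 genes; of all genes 46.6% were called higher and 35.9% lower in knockout cells, and 41.3% and 27.3% in wild type cells. Of 30 other genes of the translocon, signal peptidase and N-glycosylation 27 (90%) rose and none fell in knockout cells, and 24 (80%) rose and 2 fell in wild type cells, and with quantile normalization 21 rose and 3 fell, and 16 rose and 4 fell. The signal recognition particle receptor subunit Srprb rose by 1.26 and 0.52, and the translocon subunit Sec61g by 1.16 and 0.75. Of 31 other genes of ER export and retrieval 28 (90.3%) rose and 1 fell in knockout and 22 (71%) rose and 3 fell in wild type cells, against 18 and 3, and 14 and 6, with quantile normalization. Ergic1, a cargo receptor of the ER-Golgi intermediate compartment, rose by 1.56 and 0.94, and Sec13, a COPII coat subunit, by 1.15 and 0.51. Golt1b, a vesicle transport protein, rose by 1.248 and 0.19, with an interaction of 1.06 ± 0.06 (adjusted p = 2.04e-09).

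Of 29 other ER folding and oxidation genes 18 (62.1%) rose and 5 fell in knockout cells, and 17 (58.6%) rose and 4 fell in wild type cells; with quantile normalization 13 rose and 10 fell, and 12 rose and 6 fell. Bag2, a mainly cytosolic Hsp70 cochaperone that the list includes, rose by 3.20 and 1.66. The disulfide-forming oxidase Qsox1 rose by 1.42 and 1.00, while Ero1b, an oxidase that recharges PDI, fell by 1.02 and 0.82. Among 21 other genes of ER-associated degradation 15 (71.4%) rose and 6 fell in knockout cells, and 11 (52.4%) rose and 3 fell in wild type cells, against 10 and 6, and 8 and 3, with quantile normalization. The ubiquitin-conjugating enzyme Ube2j1 rose by 1.36 and 0.83, and Derl3, a derlin of the retrotranslocation channel, fell by 1.16 in knockout cells.

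Of 15 UPR sensors and signalling genes 10 (66.7%) rose and 4 fell in knockout and 9 (60%) rose and 3 fell in wild type cells, against 9 and 4, and 8 and 4, with quantile normalization. Trib3, a target of the PERK-ATF4 arm, rose by 2.34 ± 0.05 and 2.00 ± 0.05. Atf3, a stress-induced transcription factor, fell by 2.37 and 1.70. Creb3l2 and Creb3l1, membrane-bound transcription factors related to ATF6 and known to drive secretory and collagen genes in skeletal tissue, rose by 1.95 and 1.15 in knockout cells and by 0.71 and 0.55 in wild type cells. Their interactions were 1.23 ± 0.05 (adjusted p = 8.14e-11) and 0.60 ± 0.06 (adjusted p = 1.01e-06), and 1.12 and 0.43 with quantile normalization.

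The clients and later processors of the same pathway were mixed. Of 11 fibrillar collagen chains 6 (54.5%) rose and 4 (36.4%) fell in knockout cells, close to the shares of all genes, and 7 (63.6%) rose and 2 fell in wild type cells, against 6 and 5, and 5 and 2, with quantile normalization. Col11a1 rose by 3.92 and 2.38, Col27a1 fell by 1.41 and 1.52, Col5a1 rose by 1.11 in knockout cells and Col24a1 fell by 2.69 there. Of 15 other collagen modification and processing genes 9 (60%) rose and 5 (33.3%) fell in knockout cells, and 8 (53.3%) rose and 4 (26.7%) fell in wild type cells, against 7 and 7, and 6 and 7, with quantile normalization. The procollagen C-proteinase Tll1 rose by 3.37 and 1.35, and the procollagen N-proteinase Adamts3 fell by 2.35 and 1.06. Colgalt1, which adds galactose to hydroxylysine, rose by 1.09 in knockout cells and by 0.30 in wild type cells, where it was 0.04 and not called with quantile normalization.

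**Figure D4:**
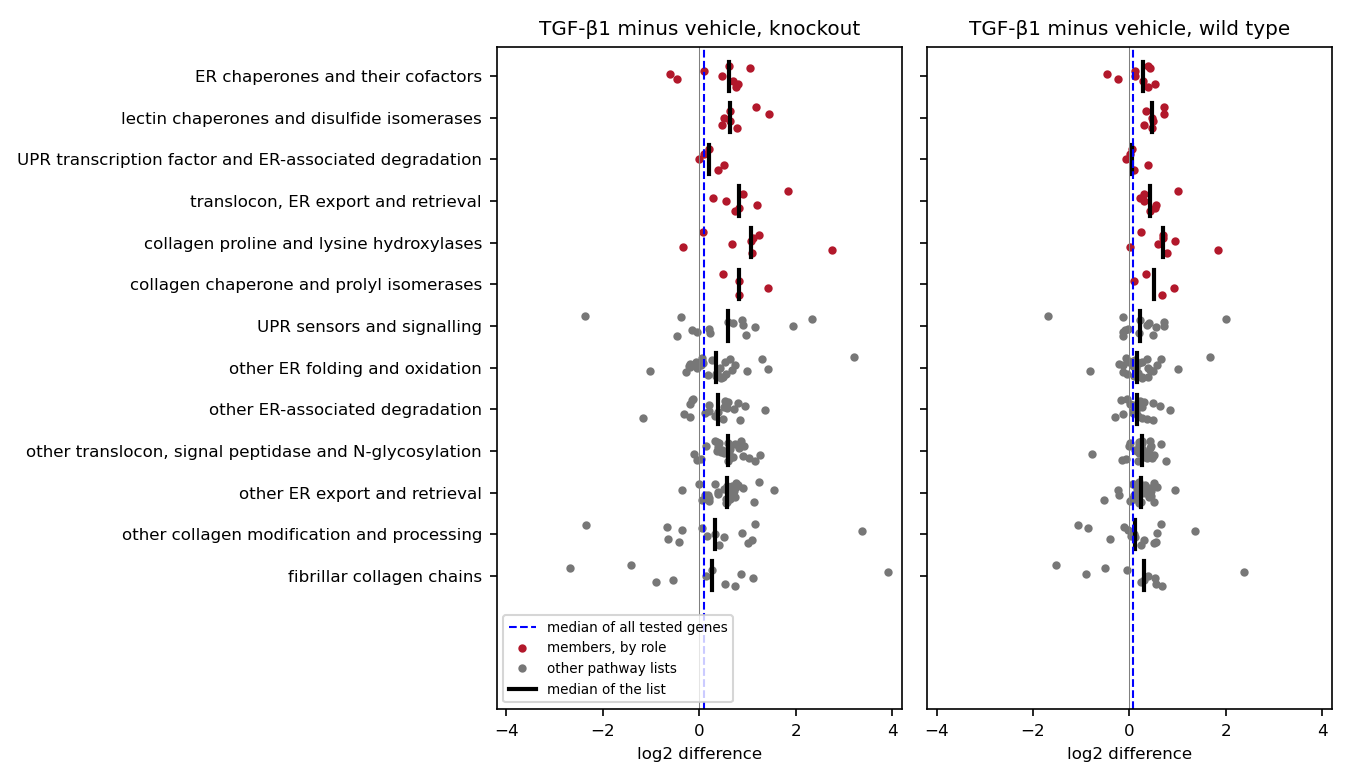
Each dot is a gene, with its log2 difference between TGF-β1 and vehicle on the horizontal axis, in knockout cells on the left and wild type cells on the right; red rows are the 40 genes by role, grey rows the other lists of the same pathways, black ticks list medians and the dashed line the median of all tested genes. The collagen hydroxylases have the highest median, 1.08 in knockout and 0.69 in wild type cells, and the fibrillar collagen chains and other processing genes reach far to both sides.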

How the data were processed

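RNA was measured in 16 samples on 1-colour Agilent arrays. Per the file headers, the deposited spot intensity of each probe is on a linear scale, written by Agilent Feature Extraction with spatial detrending and background subtraction; the submitters' processing notes give version 11.0.1.1. The authors also deposited a table of log2 values for 9933 probes with no statement of how it was normalized or its probes chosen; it runs with the log2 intensity (r of at least 0.999) and is not centred per probe, its column medians lay between 6.38 and 6.61 and it holds 10 of the 40 genes.

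Replicate spots were averaged on the log2 scale, and every array was then shifted to the same 75th percentile over probes. No spot was saturated, and 27 probes flagged as outliers by the scanner software were dropped. The fit used the 33888 probes that cleared the background flag on each of the 4 arrays of some group. Transcript accessions gave 32994 probes of the array 1 RefSeq name each, covering 22911 genes. The array was designed on mm9, so the GRCm38.p6 tables served for names and promoter sequences. The brightest kept probe stood for each gene; of the 40 genes 20 had several, and none of their 25 other probes differed from it by over 0.5 or had the opposite sign with both called.

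A limma model (version 3.58.1, R 4.3.3, files read with data.table, version 1.17.8) had 1 coefficient per group over 16 arrays. Its 2-sided p-values were adjusted by Benjamini and Hochberg's method over all 15394 genes, separately in each of 5 comparisons, and called under 0.05. It was tested on simulated data. In the text ± marks the SE of a log2 difference, or the SD where stated, and intervals are 95%. An "at least" fold sets the bright group's mean against the dim group's, taking per array the higher of the dim probe and the lowest signal well above background. The number of arrays limits the precision. Slide 1 held replicates 1 and 2 of every group and slide 2 the others. Alternatives were quantile normalization, normexp background correction, other probe filters, the mean of a gene's probes, slide and replicate blocks, each slide alone, only the groups compared, the authors' table and each array left out. Replicate numbers were not taken as pairs, and the closing section gives the correlations.

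The genes, the lists, the tests and the rule for naming were chosen with earlier results of these data known. Array or group values are given for Hspa5, Xbp1, Serpinh1, the P4ha and Plod genes and any gene among the 5 highest or 5 lowest called differences of a comparison; of each other list, up to 4 genes with the largest difference in a comparison could be named. Protein sequences were not used here.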

Additional observations from a re-analysis of the deposited data

Results flagged for a closer look

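The response to TGF-β1 was called different between knockout and wild type cells, by the interaction term in limma, for 31 of the 40 genes. Of all genes 58.3% were called. The difference, knockout minus wild type, was 0.37 for Hspa5, 0.28 for Hsp90b1, 0.43 for Hyou1, 0.36 for Dnajb11, 0.63 for Manf, 0.23 for Creld2 and -0.23 for Dnajb9 among the chaperones. It was 0.31 for Calr, 0.18 for Canx, 0.17 for Pdia3, 0.73 for Pdia5, 0.29 for Pdia6 and 0.47 for P4hb among the lectin chaperones and isomerases, and 0.30 for Xbp1 and 0.15 for Syvn1. For translocation, export and retrieval it was 0.32 for Sec61a1, 0.30 for Sec61b, 0.64 for Sec23a, 0.26 for Sec24d, 0.61 for Kdelr2 and 0.84 for Kdelr3. For collagen modification it was 0.32 for P4ha1, 0.92 for P4ha2, -0.34 for P4ha3, 0.43 for Plod3, 0.55 for P3h1, -0.15 for Crtap, 0.14 for Serpinh1, 0.50 for Fkbp10, 0.72 for Fkbp14 and 0.16 for Ppib. The interactions of Canx, Syvn1 and Ppib lost their calls without any 1 of 11, 10 and 11 arrays (limma adjusted p up to 0.0898, 0.0791 and 0.0821). A dimmer Canx probe gave 0.04, not called.

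In 7 of 160 sets of 4 arrays 1 array lay far from the others by Dixon's test, which chance does for about 1 in 20. Knockout TGF-β1 replicate 2 had 10.81 for Edem1, against 10.69 to 10.70 on the others, and replicate 3 had 12.33 for Plod2, against 12.61 to 12.65. Wild type TGF-β1 replicate 1 had 9.92 for Dnajc3, against 9.76 to 9.77, and 13.59 for Syvn1, against 13.75 to 13.78. Wild type vehicle replicate 2 had 9.99 for Sdf2l1, against 9.93 to 9.94, and 14.34 for Fkbp10, against 14.47 to 14.48, and replicate 4 had 12.65 for Kdelr2, against 12.55 to 12.57.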

How the results depend on the processing

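With quantile normalization the TGF-β1 difference in knockout cells turned to -0.0324 for Canx, -0.12 for Xbp1, -0.28 for Sel1l, -0.24 for Syvn1, -0.0659 for Mia3 and -0.0221 for Ppib, and in wild type cells to -0.0434 for Dnajb11 and for Pdia6. The genotype difference with TGF-β1 turned to -0.12 for Sel1l, -0.0905 for Syvn1, -0.0118 for Mia3 and -0.0251 for Ppib. The interaction turned to -0.0048 for Hsp90b1, -0.0099 for Creld2, -0.0653 for Canx, -0.0744 for Pdia3, -0.10 for Syvn1, -0.10 for Serpinh1 and -0.11 for Ppib. It stayed positive but lost its call for Calr (0.06), Pdia6 (0.07), Xbp1 (0.03) and Sec24d (0.16). The same held for Hspa5, Sec61a1, Sec61b and P4ha1. Called interactions numbered 17 with quantile normalization and 16 within slide 1, against 31. Of all genes 55.5%, 36.5% and 58.3% were called, in the same order. The 2 calls between genotypes with vehicle became 1 without a filter on dim probes, 1 with the mean of all probes of a gene, 1 with only the 2 groups compared and 6 with the slides as a block. Of all genes 13.2% were called in the main fit, and 6.83%, 13.1%, 10.3% and 15.5% in these alternatives. Fitted on the arrays of either slide alone, limma called 0, with 10 genes on slide 1 and 5 on slide 2 at an unadjusted p under 0.05. Of all genes 1.28% were called on slide 1 and 6.81% on slide 2. The authors' deposited table holds 10 of the genes. It gave 10 calls in knockout cells, 9 in wild type cells and 9 between genotypes with TGF-β1. With vehicle it gave 0 (1 at an unadjusted p under 0.05), and for the interaction 9. Of all 5257 genes in it 92.1%, 83.2%, 80.1%, 22.1% and 72.8% were called, in that order. Leaving out 1 array gave 36 to 39, 32 to 34, 33 to 37, 1 to 4 and 25 to 30 calls in the same order. With a replicate block the calls were 39, 34, 36, 2 and 32, with 83.5%, 70.1%, 71.9%, 14.9% and 60.5% of all genes called. Arrays that share a number correlated by -0.03 to 0.14, and the numbers were not taken as pairs. Between genotypes with TGF-β1 these correlations were 0.05 to 0.14, against 0.01 to 0.08 for other arrays on the same slide. In knockout cells they were -0.02 to 0.11, against 0.04 to 0.12. Such values do not settle whether the numbers pair arrays. The causes were not tested.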
